A study of Mus musculus with 7 samples.

Results

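The dystrophin-glycoprotein complex was followed here through the transcripts of 8 of its genes, out of 12239 genes measured by RNA sequencing in tibialis anterior (TA) muscle. The members were chosen by symbol, and all 8 were present in the expression table: *Dmd*, *Utrn*, *Dag1*, *Sgca*, *Sgcb*, *Sgcd*, *Sspn* and *Dtna*. The TA is a fast muscle at the front of the lower hind limb, and it came from male mice aged 5 to 6 months. There were 4 wild-type (WT) FVBN libraries and 3 libraries of mice lacking fast myosin-binding protein C (C2-/-), in which a Neo cassette between LoxP sites stood in place of exons 2 to 22 of *Mybpc2*. The labels name no Cre driver and no treatment for either group, so the cassette is read as present in every cell of the C2-/- mice. The design text gives 4 animals in each group, while 3 C2-/- samples were analysed here, and no label says whether the WT animals were littermates of the C2-/- animals. The p-values therefore measure the spread between these libraries.

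The complex spans the membrane of the muscle fibre, the sarcolemma. Dystrophin binds actin inside the fibre and β-dystroglycan at the membrane, α-dystroglycan binds laminin outside, and the sarcoglycans with sarcospan form an assembly beside them that steadies the link. Loss of dystrophin causes Duchenne muscular dystrophy, and loss of a sarcoglycan causes limb-girdle muscular dystrophy. In the data below the members are taken in the order of the cytoskeletal link, the laminin receptor, the sarcoglycans and the remaining subunits.

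*Dmd* and *Sgcb*, which rose, differed in base composition from *Sgca*, which fell, so stretches of their coding sequence are shown first. Not all members with opposite changes differed so, as the transcripts of *Sspn* and *Dtna* both held 46.9% G and C. Stretches of *Dag1* and *Sspn*, whose falls did not pass on the deposited values of all libraries, are shown beside them. Each is the 90 bases at the middle of the coding sequence of 1 GENCODE M21 transcript (GRCm38), 5′ to 3′, with G and C in capitals. The *Dmd* stretch holds 35.6% G and C, the *Sgcb* stretch 48.9%, the *Sspn* stretch 56.7%, and the *Dag1* and *Sgca* stretches 57.8% each.
*Dmd*: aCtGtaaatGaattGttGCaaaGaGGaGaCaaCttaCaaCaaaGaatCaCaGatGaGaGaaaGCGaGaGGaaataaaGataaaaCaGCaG
*Sgcb*: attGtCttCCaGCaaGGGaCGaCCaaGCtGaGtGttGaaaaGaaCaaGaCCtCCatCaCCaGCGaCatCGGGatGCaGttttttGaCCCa
*Sspn*: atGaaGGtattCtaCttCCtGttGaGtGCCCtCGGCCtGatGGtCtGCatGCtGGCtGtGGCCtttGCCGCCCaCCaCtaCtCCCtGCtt
*Dag1*: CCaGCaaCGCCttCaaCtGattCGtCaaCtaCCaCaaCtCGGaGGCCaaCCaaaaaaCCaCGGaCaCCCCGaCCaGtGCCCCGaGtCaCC
*Sgca*: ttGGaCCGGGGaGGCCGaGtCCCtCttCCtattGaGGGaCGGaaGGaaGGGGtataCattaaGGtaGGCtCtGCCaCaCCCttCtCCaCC

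Over the whole transcript, the GC content was 41.5% for *Dmd*, 43.9% for *Sgcb*, 47.9% for *Utrn*, 52.8% for *Dag1* and 56.7% for *Sgca*. The *Sspn* transcript held 46.9%, below its coding sequence at 57.6%, and 648 bases of its 4.43 kb are coding. *Sgcd* held 47.1% on the transcript used, of 1.62 kb, and 38.7% on its longest transcript.

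*Dmd* and *Sgca* changed in opposite directions, and the 250 bases before their RefSeq starts (GRCm38.p6) are given for reference. The *Dmd* window lies at chrX:82948620-82948869 on the plus strand and the *Sgca* window at chr11:94976328-94976577 on the minus strand. Both are written 5′ to 3′ along the gene, with matches to 4 motifs of muscle promoters in capitals, searched on both strands. The motifs were the E-box (CANNTG), the MCAT element (CATTCC), the CArG box and the MEF2 box.
*Dmd*: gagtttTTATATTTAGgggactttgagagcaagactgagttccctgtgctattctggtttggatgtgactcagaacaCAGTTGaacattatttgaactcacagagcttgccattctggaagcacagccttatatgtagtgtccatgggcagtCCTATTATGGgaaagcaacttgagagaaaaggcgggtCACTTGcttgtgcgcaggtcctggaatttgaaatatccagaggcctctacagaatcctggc
*Sgca*: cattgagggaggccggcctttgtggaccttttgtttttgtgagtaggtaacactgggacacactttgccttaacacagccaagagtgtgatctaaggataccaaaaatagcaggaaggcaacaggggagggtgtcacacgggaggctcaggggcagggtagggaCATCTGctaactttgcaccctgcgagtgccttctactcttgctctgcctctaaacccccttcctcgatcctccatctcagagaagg

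The *Dmd* window held 1 MEF2 box (the first capitals), 2 E-boxes and 1 CArG box (the capitals between the E-boxes). The *Sgca* window held 1 E-box and 0 matches to the other motifs. An E-box was present in 66.0% of the 27025 RefSeq windows of this length, the MCAT element in 12.6%, the MEF2 box in 3.01% and the CArG box in 1.4%. These matches describe the letters of the windows only.

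The libraries differed in depth and in their relation to base composition. The C2-/- libraries held 2613277 to 4917936 reads in the table, WT replicates 1 to 3 held 14929214 to 15464499 and WT replicate 4 held 4683853, so depth and genotype cannot be told apart outside WT replicate 4. *Mybpc2*, the targeted gene, stood at 12.41 to 12.85 log2 CPM in WT and at -0.47 to 1.67 in C2-/-. The muscle genes *Ckm*, *Acta1* and *Myh4*, read as a check of the tissue, were at 12.16 log2 CPM or above in every library. In C2-/- *Ckm* fell by 1.86 (adjusted p = 0.000886 by limma, and a change of -1.04 with adjusted p = 0.0165 after GC correction) and *Acta1* fell by 2.02 (adjusted p = 0.000793, and -0.72 with adjusted p = 0.0842), while *Myh4* had -0.21 (adjusted p = 0.613, and 0.40 with adjusted p = 0.428). Across 12171 genes with a known transcript, the log2 change correlated with GC content (Pearson's r = -0.65 across genes, which are not independent replicates), and over all 12239 genes the median log2 change was -0.14, or 0.02 after each library was centred on its median.

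Of the 8 members, 2 rose (*Dmd* and *Sgcb*), 1 fell (*Sgca*) and 5 did not pass the test in C2-/- muscle. Here limma, with its mean-variance trend, was applied to the deposited log2 values, and a gene passed with an adjusted p under 0.05 over all genes and a change above 1.5-fold. By the same test 20.2% of all genes rose and 25.0% fell, so the members' count stood near that of genes at large. The values of the 2 groups did not overlap for 2 members that were higher in C2-/- (*Dmd* and *Sgcb*) and for 3 that were lower (*Dag1*, *Sgca* and *Sspn*), against 22.6% and 26.7% of all genes. After the part of each library's values that followed GC content was removed, 0 members rose and 1 fell (*Sspn*), against 12.5% and 8.59% of the genes with a GC content. Without WT replicate 4, the uncorrected test called 3 members higher and 1 lower, *Utrn* being the addition, against 23.5% and 26.6% of all genes. With that library left out and GC corrected, 1 member was called higher (*Utrn*) and 1 lower (*Sspn*), against 16.3% and 9.99%.

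**Figure D1:**
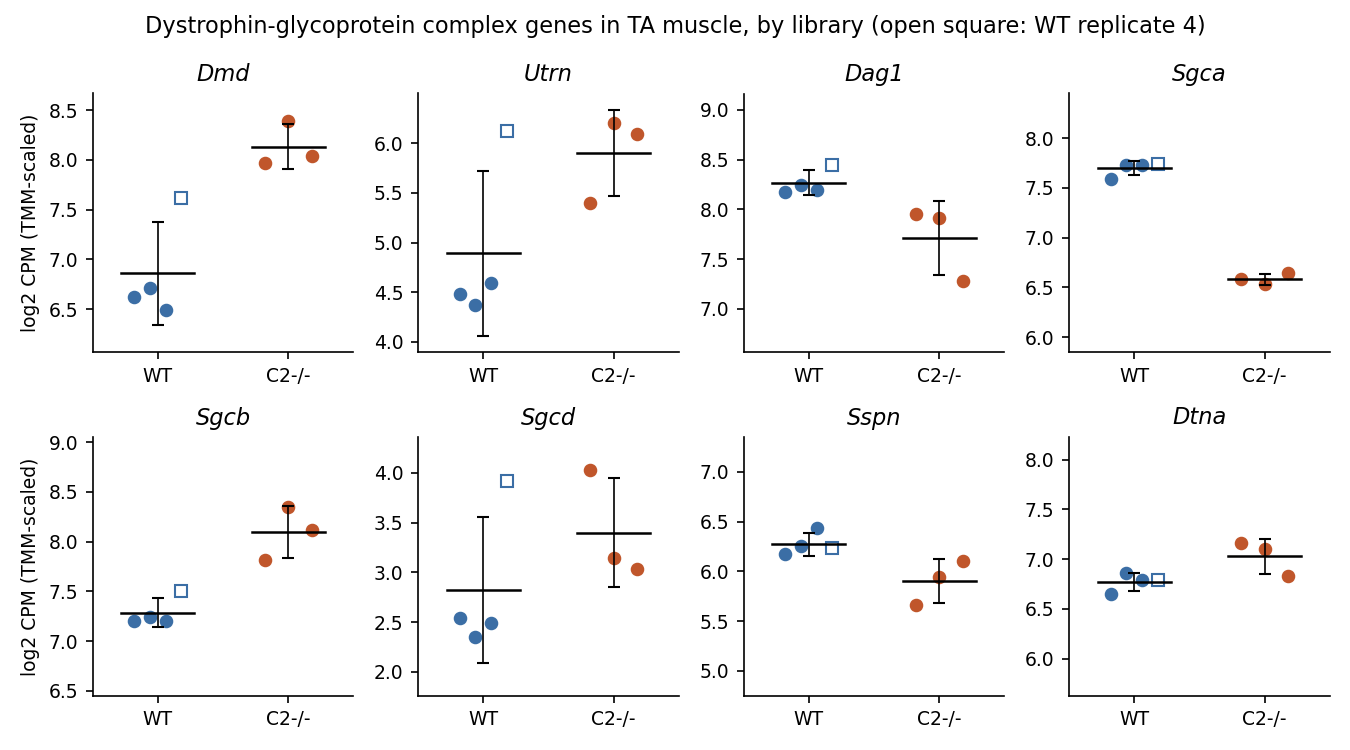
Log2 CPM of the 8 members in each library, with WT in blue and C2-/- in orange; lines and bars are the mean ± SD (n = 4 and n = 3), and the open square is WT replicate 4. Each panel spans the same height on the log2 scale, and WT replicate 4 lies nearest to or within the C2-/- points for *Dmd*, *Utrn*, *Sgcb* and *Sgcd*.

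*Dmd* encodes dystrophin, the rod that ties the cortical actin of the fibre to the membrane. The gene spans chrX:82948870-85206141 on the plus strand (GRCm38). Its level was 6.62, 6.71, 6.49 and 7.62 log2 CPM in WT replicates 1 to 4 and 7.97, 8.39 and 8.04 in C2-/- replicates 1 to 3. The groups did not overlap, but WT replicate 4 stood closer to the C2-/- libraries than to the other WT libraries. *Dmd* rose by 1.27 on the log2 scale (SE 0.26, adjusted p = 0.00386 by limma), or 2.41-fold. The C2-/- mean exceeded WT replicate 4, the WT library of like depth, by 0.52. The GC-corrected change was 0.32 (SE 0.20, adjusted p = 0.282), which did not pass.

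*Utrn* encodes utrophin, the close relative of dystrophin that sits at the neuromuscular and myotendinous junctions and in blood vessels, from chr10:12382188-12869365 on the minus strand. Its values were 4.48, 4.37, 4.59 and 6.12 log2 CPM in WT replicates 1 to 4 and 5.40, 6.20 and 6.09 in C2-/- replicates 1 to 3. WT replicate 4 lay between the C2-/- values, and the other WT libraries lay below all of them. With all libraries the log2 change was 1.0 (SE 0.41, adjusted p = 0.0662 by limma) and did not pass. Without WT replicate 4 it was 1.41 (adjusted p = 0.00144), and the C2-/- mean was below WT replicate 4 by 0.23. With GC corrected it was 0.81 (adjusted p = 0.178), or 1.22 without WT replicate 4 (adjusted p = 0.00697).

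Vessels and nerves, which hold utrophin besides the fibres, contribute RNA to whole TA. The summed level of 8 endothelial markers was 358 to 522 CPM in WT, with the lowest value in WT replicate 4, and 298 to 389 in C2-/-. The summed level of the 6 Schwann cell markers measured was 59.8 to 129 CPM in WT, with the highest value in WT replicate 4, and 67.1 to 96.6 in C2-/-. The part of these cells in the *Utrn* values was not tested, and in bulk samples fewer cells of a type and less RNA per cell cannot be told apart.

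*Dag1* encodes the precursor that is cut into α- and β-dystroglycan, the laminin receptor at the centre of the complex, from chr9:108204634-108263958 on the minus strand. It stood at 8.17, 8.25, 8.20 and 8.45 log2 CPM in WT replicates 1 to 4 and at 7.95, 7.91 and 7.28 in C2-/- replicates 1 to 3. All C2-/- libraries were below all WT libraries, with replicate 3 the lowest. The log2 change was -0.56 (SE 0.19, adjusted p = 0.0344 by limma), short of the 1.5-fold minimum. It was -0.67 without C2-/- replicate 1 and -0.65 without C2-/- replicate 2, both past the threshold, and -0.34 without C2-/- replicate 3. After GC correction it was 0.04 (adjusted p = 0.900).

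The sarcoglycans are single-pass membrane proteins that assemble with each other before they reach the sarcolemma, and *Sgca* encodes α-sarcoglycan, the striated-muscle form, from chr11:94962791-94976327 on the minus strand. *Sgca* was the steadiest member within groups, at 7.59, 7.73, 7.73 and 7.74 log2 CPM in WT replicates 1 to 4 and 6.58, 6.53 and 6.64 in C2-/- replicates 1 to 3. The gap between the groups was far wider than the spread inside either, and WT replicate 4 sided with the other WT libraries. *Sgca* fell by 1.11 on the log2 scale (SE 0.14, adjusted p = 0.000442 by limma), and by 1.16 against WT replicate 4 alone. With GC corrected the change was 0.14 (SE 0.19, adjusted p = 0.625), so both the call and the direction were lost.

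*Sgcb* encodes β-sarcoglycan, which forms the core of the sarcoglycan assembly with δ-sarcoglycan, from chr5:73632749-73647790 on the minus strand. Its values were 7.20, 7.24, 7.20 and 7.50 log2 CPM in WT replicates 1 to 4 and 7.82, 8.35 and 8.12 in C2-/- replicates 1 to 3. Every C2-/- library was above every WT library, and WT replicate 4 was the highest WT library. *Sgcb* rose by 0.81 on the log2 scale (SE 0.17, adjusted p = 0.00427 by limma), or 1.75-fold. The difference from WT replicate 4 alone was 0.60. The GC-corrected change was 0.13 (SE 0.15, adjusted p = 0.580), which did not pass.

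*Sgcd*, which encodes δ-sarcoglycan, was the lowest member on the log2 CPM scale and rested on 23 to 89 reads per library. The gene spans chr11:46896253-47988969 on the minus strand. It stood at 2.54, 2.35, 2.49 and 3.92 log2 CPM in WT replicates 1 to 4 and 4.03, 3.14 and 3.03 in C2-/- replicates 1 to 3. WT replicate 4 was above 2 of the 3 C2-/- libraries, so the groups overlapped. The log2 change of 0.57 (SE 0.46, adjusted p = 0.321 by limma) did not pass. It was 0.94 without WT replicate 4 and still did not pass (adjusted p = 0.0578 by limma), it was 0.26 without C2-/- replicate 1 (adjusted p = 0.689), and the C2-/- mean was below WT replicate 4 by 0.52. The GC-corrected change was 0.27 with the GC content of the transcript used and -0.65 with that of the longest transcript.

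*Sspn* encodes sarcospan, the tetraspanin-like protein that binds the sarcoglycans, from chr6:145931641-145965223 on the plus strand. Its values were 6.17, 6.25, 6.44 and 6.23 log2 CPM in WT replicates 1 to 4 and 5.66, 5.94 and 6.10 in C2-/- replicates 1 to 3. The C2-/- libraries were all below the WT libraries, though C2-/- replicate 3 and WT replicate 1 lay close together. The log2 change was -0.37 (SE 0.17, adjusted p = 0.100 by limma) and did not pass. After GC correction *Sspn* fell by 0.70 (SE 0.17, adjusted p = 0.0165), the only member called there, and it stayed below 0 under each alternative run, from -0.80 to -0.21. An antisense gene, *Sspnos*, overlaps its exons, and whether strand was used in counting is not given in the sources used here.

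*Dtna* encodes α-dystrobrevin, which binds dystrophin and the syntrophins on the cytoplasmic side. It lies on chromosome 18 (23415135 to 23659715, plus strand, GRCm38) and shares exon positions with an antisense gene, *Gm47898*. Its values were 6.65, 6.86, 6.79 and 6.79 log2 CPM in WT replicates 1 to 4 and 7.16, 7.10 and 6.83 in C2-/- replicates 1 to 3. C2-/- replicate 3 fell inside the WT range, so the groups overlapped. The log2 change was 0.26 (SE 0.15, adjusted p = 0.190 by limma), and -0.06 with GC corrected.

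**Figure D2:**
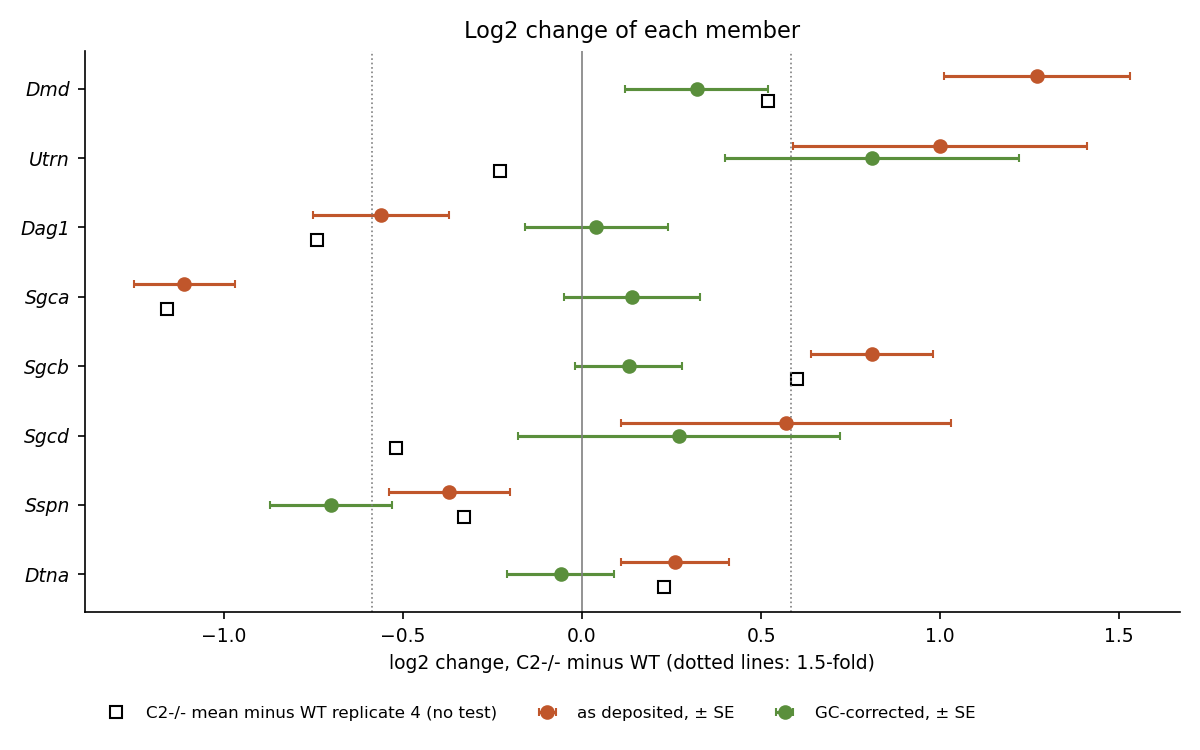
Log2 change (C2-/- minus WT) of each member as deposited (orange, ± SE), GC-corrected (green, ± SE) and as the C2-/- mean minus WT replicate 4 (open square, no test); dotted lines mark a 1.5-fold change. *Dmd*, *Sgcb* and *Sgca* lie beyond the dotted lines as deposited and between them after GC correction, and *Sspn* alone moves outward, to -0.70.

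The members were set beside all genes of like base composition. When genes were ranked by transcript GC content and divided into deciles, the median log2 change of all genes ran from 1.12 in decile 1, the lowest GC content, to -1.69 in decile 10. *Dmd* belonged to decile 1 and exceeded its median by 0.15. *Sgcb*, in decile 2, exceeded a median of 0.77 by 0.04. *Dag1*, in decile 7, stood 0.16 above a median of -0.72, and *Sgca*, in decile 9, 0.18 above a median of -1.30. Of the genes of decile 1, 63.6% rose, of decile 2 44.7% rose, of decile 7 34.8% fell and of decile 9 55.4% fell.

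The other members, *Utrn*, *Sgcd*, *Sspn* and *Dtna*, all belonged to decile 4, where the median log2 change was 0.24 and the interquartile range ran from -0.35 to 0.77. *Utrn* was above that range, by 0.76 over the median, *Sspn* was below it, by 0.61 under the median, and *Sgcd* and *Dtna* were inside. In all, 6 members lay inside the interquartile range of their decile. Over the 8 members, Pearson's r of GC content and log2 change was -0.87, a description of 8 genes read in the same libraries. The median absolute log2 change was 0.69 for the members and 0.91 for all genes, and after GC correction 0.20 and 0.58.

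**Figure D3:**
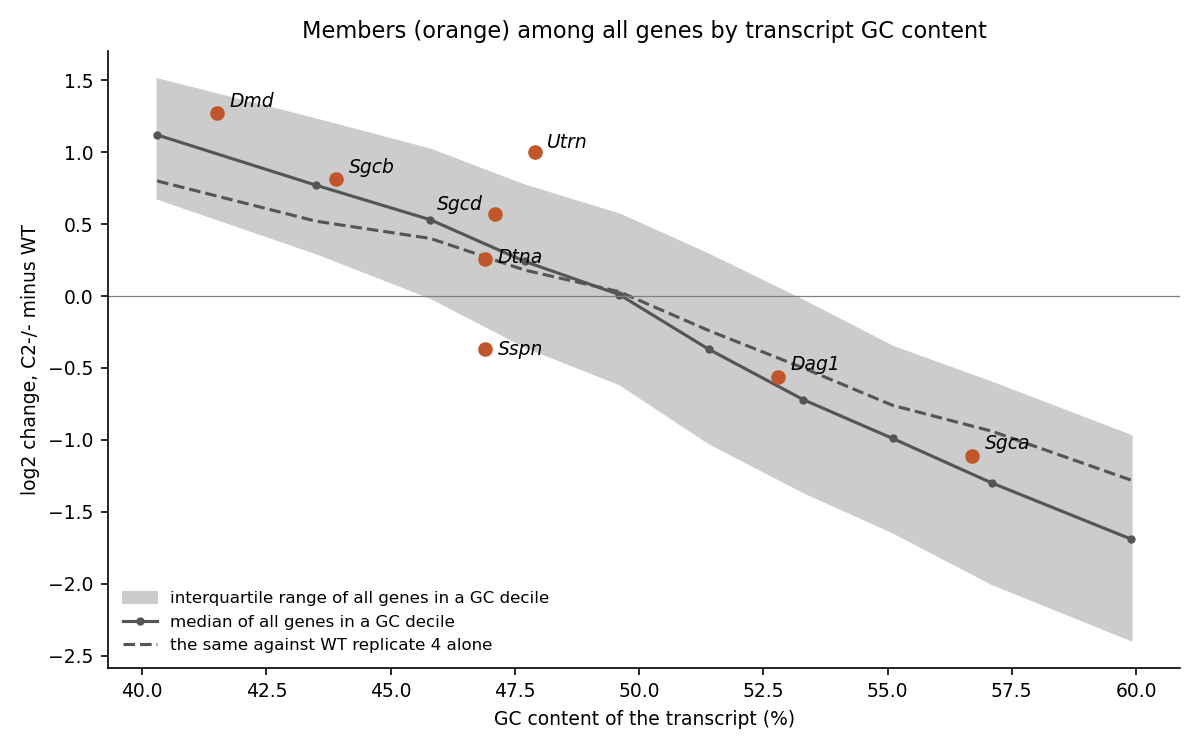
Log2 change (C2-/- minus WT) against transcript GC content in percent. The solid line and grey band are the median and interquartile range of all genes in each GC decile, the dashed line is that median against WT replicate 4 alone, and orange points are the members. *Dmd*, *Sgcb*, *Dag1* and *Sgca* follow the line from 1.27 down to -1.11, while *Utrn* lies above the band and *Sspn* just below it.

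Levels were also compared between members, as CPM per kb of transcript. In WT, *Sgca* was highest at 120.0 ± 5.85 CPM per kb (SD, n = 4), followed by *Dag1* at 54.6 ± 5.02, *Sgcb* at 41.3 ± 4.31, *Dtna* at 28.3 ± 1.72 and *Sspn* at 17.5 ± 1.48. *Dmd* had 8.21 ± 3.33, *Sgcd* 4.9 ± 2.98 and *Utrn* 2.76 ± 1.92 CPM per kb. The ranges over WT libraries overlapped between *Dmd* and *Sgcd* and between *Sgcd* and *Utrn*, and did not between the higher neighbours. In C2-/- muscle, *Sgcb* came first at 73.0 ± 13.4 CPM per kb (SD, n = 3) and *Sgca* second at 55.6 ± 2.14. *Dmd*, at 19.0 ± 3.11, stood above *Sspn*, at 13.6 ± 2.07, which it had not done in WT. These orders carry the GC trend between the groups described above, and *Dmd*, whose 14.9 kb transcript was used for its length, also has shorter forms that per-gene values do not tell apart.

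Ratios within a library do not depend on how that library was scaled. The log2 ratio of *Sgca* to *Sgcb* was 0.39, 0.48, 0.53 and 0.24 in WT replicates 1 to 4 and -1.23, -1.82 and -1.48 in C2-/- replicates 1 to 3, so the sign of the ratio differed between the groups, with no overlap. The difference was -1.92 (two-sided exact permutation p = 0.02857, the smallest that 35 assignments can give, and 0.0857 after Benjamini-Hochberg adjustment over 6 ratios). After GC correction the difference was 0.01.

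The log2 ratio of *Dag1* to *Dmd* was 1.54, 1.53, 1.72 and 0.84 in WT replicates 1 to 4 and -0.02, -0.48 and -0.75 in C2-/- replicates 1 to 3. It was lower in 3 of 3 C2-/- libraries than in any WT library, by -1.83 on average (exact permutation p = 0.02857, adjusted 0.0857), and by -0.27 after GC correction. *Sspn* relative to *Dmd* lay at -1.38 to -0.04 in WT and -2.45 to -1.94 in C2-/-, with no overlap, and differed by -1.64 (exact permutation p = 0.05714, adjusted 0.114). This ratio kept -1.02 of its difference after GC correction. *Dtna* relative to *Dmd* differed by -1.01 (exact permutation p = 0.08571, adjusted 0.129), and by -0.38 after GC correction.

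*Utrn* relative to *Dmd* was -2.14, -2.34, -1.90 and -1.49 in WT replicates 1 to 4 and -2.57, -2.19 and -1.95 in C2-/- replicates 1 to 3. The groups overlapped, with a difference of -0.27 (exact permutation p = 0.3714, adjusted 0.446) that turned to 0.49 after GC correction and was -0.10 without C2-/- replicate 1 and -0.11 without WT replicate 4. The ratio of *Sgcd* to *Sgcb* differed by -0.24 (exact permutation p = 0.5714, adjusted 0.571), and by 0.14 after GC correction. It was -0.69 without C2-/- replicate 1, -0.04 without C2-/- replicate 3, 0.02 without C2-/- replicate 2 and 0.06 without WT replicate 4, so its sign rested on single libraries. None of the 6 ratios passed after adjustment.

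**Figure D4:**
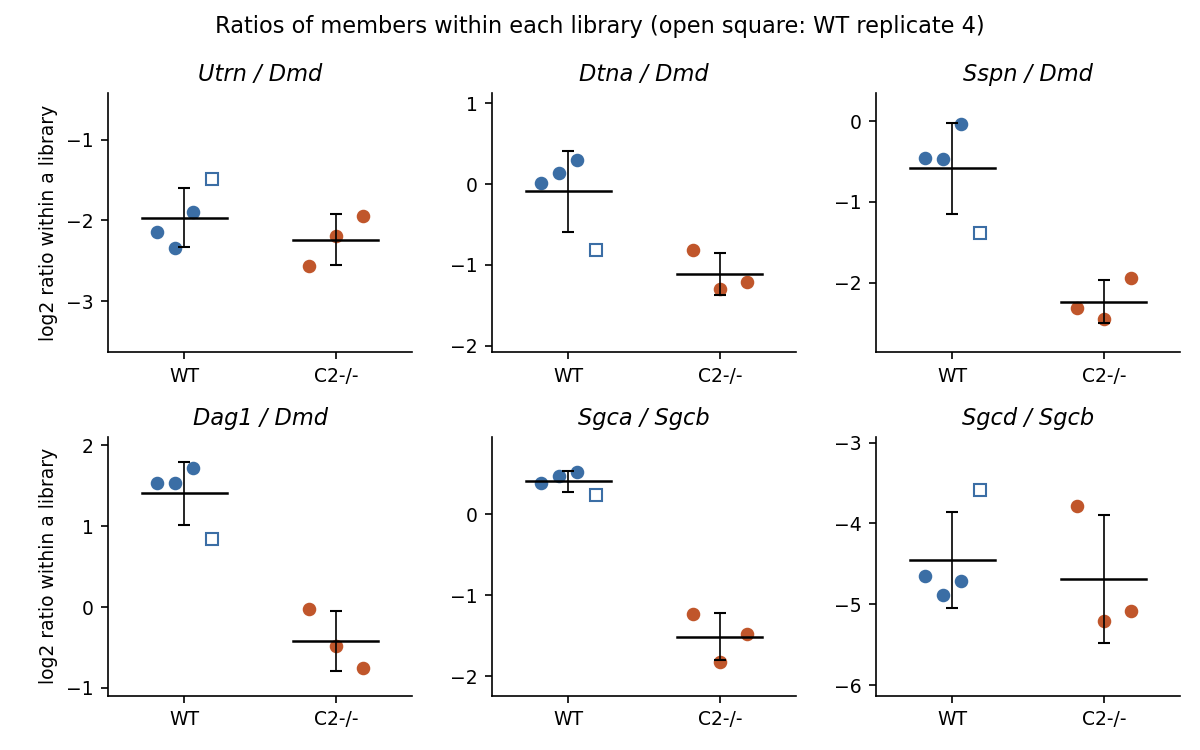
Log2 ratio of 2 members within each library, WT in blue and C2-/- in orange, with the mean ± SD (n = 4 and n = 3); the open square is WT replicate 4. The *Sgca*/*Sgcb*, *Dag1*/*Dmd* and *Sspn*/*Dmd* ratios of the groups do not overlap, while WT replicate 4 lies with the C2-/- libraries for *Dtna*/*Dmd*.

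Across the 7 libraries the members' log2 values were correlated in both directions. *Dmd* followed *Sgcb* (Pearson's r = 0.95) and *Utrn* (r = 0.91) and ran against *Sgca* (r = -0.86), and *Sgca* ran against *Sgcb* (r = -0.91). After GC correction the sign of both *Sgca* pairs turned, to 0.83 for *Dmd* with *Sgca* and 0.78 for *Sgca* with *Sgcb*. *Dmd* and *Utrn* had r = 0.93, and *Dmd* and *Sgcb* r = 0.56. These values describe 7 libraries of 2 genotypes and 2 depth ranges.

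Among 7815 other genes with a mean of at least 3 log2 CPM, those most like *Dmd* over the 7 libraries were *Tpr*, a nuclear pore protein (r = 0.999), *Tmem263* (r = 0.998) and *Ccdc115* (r = 0.998), and 713 genes reached r = 0.95 or more. Those most like *Utrn* were *2300009A05Rik* (r = 0.997), *Pcbp1*, an RNA-binding protein (r = 0.992), and *Otud4*, a deubiquitinase (r = 0.991), and 117 genes reached that level.

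Of 12 further subunits and close partners of the complex, 9 were in the table, and 1 rose, 2 fell and 6 did not pass, or with GC corrected 2 rose, 1 fell and 6 did not pass. For this list and those that follow, the shares over all genes by the same test were 20.2% higher and 25.0% lower, or 12.5% and 8.59% with GC corrected. *Cav3*, which encodes caveolin-3 of muscle caveolae, fell by 1.54 (SE 0.26, adjusted p = 0.00172 by limma), but with GC corrected its change was -0.30 (adjusted p = 0.370).

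*Sgce*, which encodes ε-sarcoglycan, the widely expressed homologue of α-sarcoglycan, was at 2.12, 2.64, 2.33 and 3.96 log2 CPM in WT replicates 1 to 4 and 4.18, 4.88 and 4.70 in C2-/- replicates 1 to 3. WT replicate 4 was again the nearest to the C2-/- libraries. *Sgce* rose by 1.82 (SE 0.45, adjusted p = 0.00857 by limma), and by 1.41 with GC corrected (adjusted p = 0.0389), while the C2-/- mean exceeded WT replicate 4 by 0.62. *Nos1*, the neuronal nitric oxide synthase, had a log2 change of 0.04 (adjusted p = 0.875) as deposited and rose by 1.25 with GC corrected (adjusted p = 0.0112).

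Several subunits were scarce. *Dtnb*, *Sntb2* and *Drp2* had 0 reads in C2-/- replicate 2 and log2 changes of -1.89, -1.65 and -2.11, and *Sntb1*, with as few as 1 read, had -0.88, and none of these 4 passed with all libraries. Without C2-/- replicate 2 the changes were -1.21 for *Dtnb*, -0.58 for *Sntb2*, -0.97 for *Drp2* and -0.46 for *Sntb1*. Without C2-/- replicate 3, 5 subunits passed, *Dtnb* (-2.52) and *Drp2* (-2.73) being the additions, beside 5169 over all genes. *Drp2* also passed without C2-/- replicate 1 (-2.63). The median log2 change of the 9 genes was -1.54, beside -0.14 for all genes, and -0.64 after GC correction. Without C2-/- replicate 2 it was -0.58.

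Enzymes that build the laminin-binding glycan of α-dystroglycan or supply its precursors were represented by 17 of 18 listed genes (3 by older symbols). *Dpm1*, *Dpm2* and *Dolk*, named below, supply precursors. Of the 17 genes, 4 rose, 8 fell and 5 did not pass. Without WT replicate 1 or without WT replicate 2, 7 passed in all. There the count over all genes went from 5528 to 4149 or 4102. With GC corrected 3 rose, 2 fell and 12 did not pass. Of all genes 20.2% rose and 25.0% fell, or 12.5% and 8.59% with GC corrected. *Dpm1*, a subunit of dolichol-phosphate mannose synthase, rose by 3.08 on the log2 scale (adjusted p = 0.000565 by limma) and by 2.09 with GC corrected (adjusted p = 0.00542). *Dpm2*, another subunit of that enzyme, fell by 2.72 (adjusted p = 0.00796) and by 1.99 with GC corrected (adjusted p = 0.0376), from as few as 1 read in a C2-/- library. *Dolk*, dolichol kinase, had 0 reads in C2-/- replicate 2 and a log2 change of -3.21 (adjusted p = 0.0383 by limma), and -2.29 with GC corrected (adjusted p = 0.144). Without C2-/- replicate 2 it was -1.39 (adjusted p = 0.0106), and the call was lost without any 1 of the 4 WT libraries (adjusted p = 0.0574 to 0.0718).

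Of the 10 genes for laminins and other basement membrane ligands, 2 rose, 4 fell and 4 did not pass, and with GC corrected 3 rose, 0 fell and 7 did not pass. The count of rises stood near the 20.2% of all genes that rose, and 25.0% fell, or 12.5% and 8.59% with GC corrected. *Lama2*, the laminin α2 chain that dystroglycan binds around muscle fibres, rose by 0.76 (SE 0.23, adjusted p = 0.0218 by limma) and had 0.54 with GC corrected (adjusted p = 0.126). *Nid2*, nidogen-2, rose by 0.96 (adjusted p = 0.019) and by 1.88 with GC corrected (adjusted p = 0.00347). *Lama5* fell by 2.24 and *Hspg2*, perlecan, by 2.19, and neither passed with GC corrected. The call of *Lama2* was lost without WT replicate 3 (0.71), C2-/- replicate 1 (0.75) or C2-/- replicate 2 (0.57), and that of *Nid2* without WT replicate 1 (0.90).

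The integrin α7β1 system is the other laminin link of the fibre. Of its 11 genes 1 rose, 7 fell and 3 did not pass, and with GC corrected 0 rose, 1 fell and 10 did not pass, beside 20.2% of all genes that rose and 25.0% that fell, or 12.5% and 8.59% with GC corrected. *Itga7*, the integrin α7 chain, fell by 2.71 (SE 0.33, adjusted p = 0.000414 by limma) and by 1.31 with GC corrected (adjusted p = 0.00667). *Bcam*, a laminin α5 receptor, fell by 1.73 as deposited and had 0.01 with GC corrected. *Lims1*, the integrin adaptor PINCH-1, rose by 0.80 as deposited and did not pass with GC corrected.

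Of 11 genes that link the complex or the membrane to the cytoskeleton, 3 rose, 7 fell and 1 did not pass, and with GC corrected 4 rose, 0 fell and 7 did not pass. The shares of all genes were 20.2% higher and 25.0% lower, or 12.5% and 8.59% with GC corrected. *Plec*, plectin, fell by 2.36 and *Flnc*, filamin C, fell by 2.03, with changes of -0.59 and -0.55 after GC correction that did not pass. The ankyrin genes *Ank2* and *Ank3* rose by 1.19 and 0.94 as deposited and by 1.39 and 1.11 with GC corrected (adjusted p = 0.0302 and 0.00824 by limma). The groups overlapped for *Ank2*, and the C2-/- mean exceeded WT replicate 4 by 0.45 for *Ank2* and 0.36 for *Ank3*. The call of *Ank2* was lost without WT replicate 1, 2 or 3 or C2-/- replicate 1 or 2 (0.89 to 1.13).

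Of 10 membrane repair genes 1 rose, 5 fell and 4 did not pass, and with GC corrected 1 rose, 1 fell and 8 did not pass, against 20.2% and 25.0% of all genes, or 12.5% and 8.59% with GC corrected. *Trim72*, the gene of mitsugumin 53 that nucleates membrane patches, fell by 2.13 (adjusted p = 0.000302 by limma), and its GC-corrected change of -0.57 (adjusted p = 0.0237) was short of 1.5-fold. *Cavin1* fell by 1.73 and did not pass with GC corrected. *Anxa5*, annexin A5, rose by 1.57 (adjusted p = 0.0196) and by 1.84 with GC corrected (adjusted p = 0.0262). The groups overlapped for *Anxa5*, and its C2-/- mean exceeded WT replicate 4 by 0.31. Its call was lost without WT replicate 2 (1.36), C2-/- replicate 1 (1.61) or C2-/- replicate 2 (1.17).

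**Figure D5:**
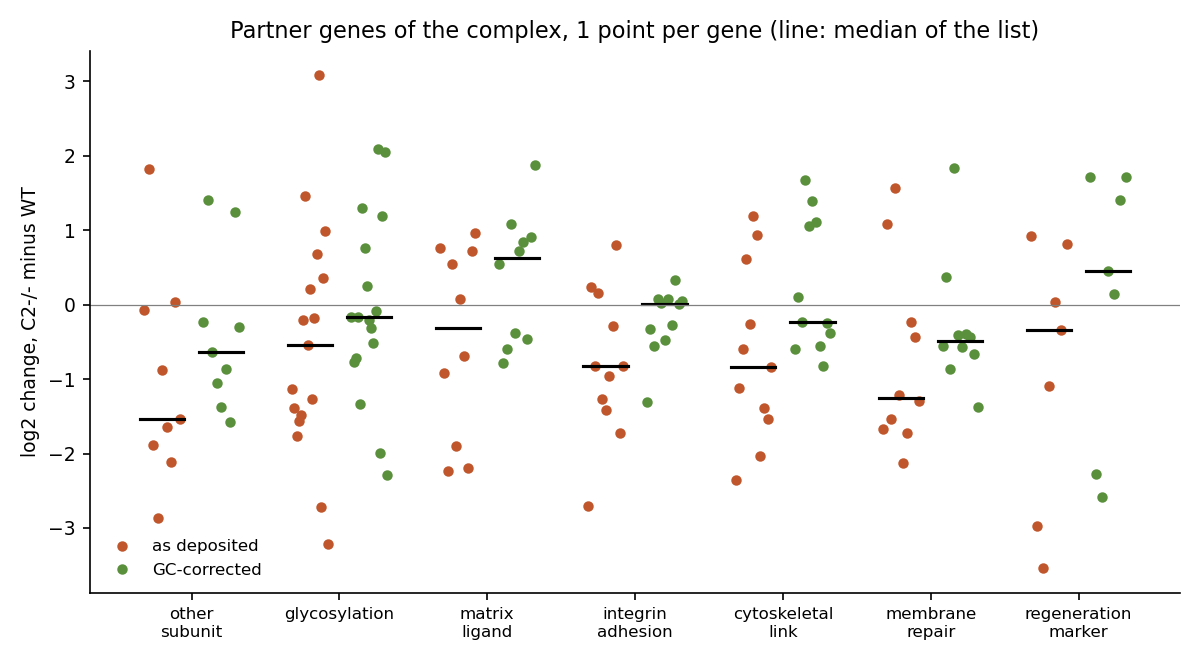
Log2 change (C2-/- minus WT) of each gene of the partner lists and the regeneration markers, as deposited (orange) and GC-corrected (green), with the median of each list as a line. The median of each of the 7 lists is below 0 as deposited, from -0.31 to -1.54, and each lies higher after GC correction. Without C2-/- replicate 3 the median of the regeneration markers is 0.42.

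Regeneration markers, which rise when fibres are damaged and rebuilt, were read beside the complex. Of 7 measured, 1 rose, 3 fell and 3 did not pass, and with GC corrected 1 rose, 1 fell and 5 did not pass. By the same tests 20.2% of all genes were higher and 25.0% lower, or 12.5% and 8.59% with GC corrected. Their summed level was 101 to 170 CPM in WT and 64.9 to 72.8 in C2-/-. The embryonic myosin gene *Myh3* had a log2 change of 0.92 and did not pass (adjusted p = 0.493 by limma). It was lowest in WT replicate 4, at -3.14 log2 CPM, and without that library the change was -0.11 (adjusted p = 0.898). *Myh8*, the perinatal myosin, fell by 2.97 (adjusted p = 0.00207), and fell by 2.28 with GC corrected (adjusted p = 0.0109). *Myog*, myogenin, fell by 3.54 to as few as 0 reads, and with GC corrected its change of -2.58 did not pass (adjusted p = 0.0624). *Myod1*, named after its values were seen, fell by 1.09 and had 0.45 with GC corrected (adjusted p = 0.406). *Cdkn1a*, a cell-cycle inhibitor, rose by 0.82 (adjusted p = 0.0339) and by 1.71 with GC corrected (adjusted p = 0.00404), and the uncorrected call was lost without WT replicate 2 or 3 or C2-/- replicate 1 or 2 (0.70 to 0.83).

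Markers of fibres and of other cells in whole TA were also read. Of all genes 20.2% were higher and 25.0% lower by the same test, or 12.5% and 8.59% with GC corrected. The summed level of 8 fibroblast markers was 881 to 1000 CPM in WT and 1700 to 2010 in C2-/-, with 5 genes higher and 1 lower. The 7 macrophage markers measured summed to 49.0 to 67.0 CPM in WT and 66.1 to 105 in C2-/-, with 3 genes higher and 0 lower. The 8 mural cell markers summed to 3610 to 4480 CPM in WT and 1710 to 2440 in C2-/-, with 3 lower, but *Des*, which fibres also express, was among them at a mean of 11.86 log2 CPM in WT and 10.74 in C2-/-. The 12 muscle fibre markers summed to 204000 to 240000 CPM in WT and 108000 to 133000 in C2-/-. Of them 6 were lower, including *Ckm* and *Acta1*. The fast myosin genes *Myh1* (-0.37), *Myh2* (-0.20) and *Myh4* (-0.21) did not pass. Of the endothelial markers 1 was higher and 3 lower. Without WT replicate 1, 2 or 3 or C2-/- replicate 1 or 3, 2 endothelial markers passed in all. Of the Schwann cell markers 1 was lower, and 0 to 3 passed when 1 library was left out. Over all genes, 5528 passed with all libraries and 4095 to 6136 with 1 left out. With GC corrected, 3 fibroblast markers were higher and 0 lower, 2 macrophage markers were higher and 0 lower, 1 mural marker was higher and 0 lower, 2 fibre markers were lower, and 0 endothelial or Schwann cell markers passed. No marker of these lists had 0 reads in every library, and the part of these cells in the members' values was not tested.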

How the data were processed

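RNA of whole TA from 4 WT and 3 C2-/- mice was selected on oligo(dT) beads and sequenced as DNA nanoballs. The authors aligned the reads to GRCm38.p6 with HISAT, counted them per gene with featureCounts 1.5.2, scaled them by TMM with edgeR and deposited log2 values for 12239 genes. The use of strand and the filter on genes are not given in the sources used here. A second deposited table holds the authors' own limma comparison, with log fold changes and p-values, and was not used. Each log2 value was the log2 of a whole number of reads plus 0.5 per 1e6, so reads were read back (100.0% whole, largest departure 2.2e-08 reads). A count of 3 reads corresponded to 0.195 to 1.12 CPM, a floor that covers counting error only.

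limma 3.58.1 in R 4.3.3 (lmFit, eBayes with trend) compared C2-/- with WT on the log2 values, two-sided, with Benjamini-Hochberg adjustment over all genes. A gene passed with an adjusted p under 0.05 and a change above 1.5-fold (0.585 on the log2 scale). Because 0.5 was added before the log, changes of genes with few reads depend on depth. Changes are differences of log2 values, C2-/- minus WT. To correct for GC, each library's trend on transcript GC content (natural spline, 5 degrees of freedom, GENCODE M21, 12171 genes, 353 by an older symbol, transcript with the longest coding sequence) was removed and the mean curve added back. The fit was tested on simulated data. For ratios of members an exact permutation test was used, two-sided (scipy 1.17.1).

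The members and lists were chosen with earlier results of these data known. Named besides the members were all partner subunits in the table, up to 2 largest rises and falls past the threshold in each list, and the 3 genes most correlated with *Dmd* and with *Utrn*. Some genes that this rule names are not reported here, although the counts of their lists include them. Alternatives were another scaling, filters, library weights, voom on the reads, 2 reads added before the log, the GC correction, a replicate block and leaving out each library. Replicate numbers are not stated to pair samples, and deviations of same-numbered libraries correlated at -0.06 to 0.05, so they were not treated as pairs.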

Additional observations from a re-analysis of the deposited data

Results flagged for a closer look

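A WT library stood apart from the other 3 for several genes described above, with a Dixon ratio of gap to range past the critical value. Of 44 genes and ratios examined, 11 were past it, 9 of them with WT replicate 4 as the far library, where chance gives about 1 in 20. Over all genes 17.3% were past it, 16.1% with WT replicate 4 as the far library, so such gaps were common for genes at large. Among the members, WT replicate 4 was the high library for *Utrn* (ratio 0.873), *Sgcb* (0.842) and *Sgcd* (0.878), and WT replicate 1 was the low library for *Sgca* (0.914), where the whole WT range was narrow. Among the partner genes, WT replicate 4 was far from the rest for *Nos1* (0.839), *Itga7* (0.885), *Ank2* (0.885), *Ank3* (0.894), *Trim72* (0.844) and *Anxa5* (0.836). WT replicate 3 was far from the rest for *Drp2* (0.836). The cause was not tested. The C2-/- group, with 3 libraries, was not examined in this way.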

How the results depend on the processing

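The GC correction moved most results. Genes past the threshold went from 5528 (44.7% of them higher) to 2567 (59.3% higher), or 2505 with the GC content of the longest transcript, 3016 with the replicate block added and 3197 without WT replicate 4. The members past the threshold went from 3 to 1 under either GC content, and the pathway list genes from 45 to 18, or 23 with the block. In the same order of the 4 GC-corrected fits, the log2 change of *Dmd* was 0.32, 0.34, 0.49 and 0.49, not past the threshold. In the last 2 fits the limma adjusted p for *Dmd* was 0.0322 and 0.0256, and only the fold was short. *Sgcb* had 0.13, 0.15, 0.14 and 0.14, not past it, and *Sspn* had -0.70, -0.80, -0.74 and -0.74, past it. The sign changed, to values that did not pass, for *Dag1* (0.04, 0.09, 0.16 and 0.16), *Sgca* (0.14, 0.16, 0.25 and 0.25) and *Dtna* (-0.06, -0.13, -0.07 and -0.07). *Sgcd* had -0.65 with the longest transcript, which did not pass. *Utrn* passed with 1.22 in both fits that left out WT replicate 4 or added the block. Under the GC correction the difference changed sign for the ratios of *Utrn* to *Dmd* (0.49), *Sgca* to *Sgcb* (0.01) and *Sgcd* to *Sgcb* (0.14). None of these passed (exact permutation, adjusted p = 0.300, 0.943 and 0.823).

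With other settings *Utrn* passed after median centring (1.16), library quality weights (1.27), voom (1.17) and the replicate block (1.41). *Dag1* passed after quantile normalization (-0.79) and *Sgcd* with quality weights (1.03), which called 5 members. Over all 12239 genes, 5634 passed after median centring, 6354 with quality weights, 6015 with voom, 5901 with the block and 5643 after quantile normalization. WT replicate 4 has no partner of the same number, so the block fit rested on the 3 others, which is what leaving it out does. The block changed no other member's call. The C2-/- mean minus WT replicate 4 was 0.52 for *Dmd*, -0.23 for *Utrn*, 0.60 for *Sgcb* and -0.52 for *Sgcd*, and -0.74, -0.28, -0.85, -1.26 and -1.12 for the ratios of *Utrn*, *Dtna*, *Sspn* and *Dag1* to *Dmd* and *Sgcd* to *Sgcb*. Leaving out 1 library gave 4095 to 6136 genes, 3 or 4 members, 0.83 to 1.41 for *Utrn* and -0.67 to -0.34 for *Dag1*. Of 234 recomputed counts of single lists, 198 stayed within 1.5 times, 29 fell below that (20 of them with the GC correction) and 7 rose above it. The GC-corrected fit without WT replicate 4 and the longest-transcript GC content were chosen after seeing the data.

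The scarce genes rested on few reads, with *Sgcd* at 23 to 89 per library. Depth, GC trend and genotype cannot be told apart with these libraries, apart from WT replicate 4.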
